A study of Mus musculus with 45 samples.

Results

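Ribosome biogenesis genes code for the machinery that builds ribosomes, and 46 of them, chosen by name, were followed here across cultured mouse follicular B cells. All 46 symbols were found among the 30317 of the expression table, and all 46 passed the filter on low values (at least 1 TPM, a measure of transcript abundance relative to the library total, in at least 3 libraries), as did 15614 symbols in all. PolyA RNA was measured in 45 libraries of splenic follicular B cells, a resting B cell type, from mice of genotype B6.Blimp1GFP/+, which carry a GFP reporter in the gene for Blimp1, a factor that drives plasma cell formation. This genotype was shared by all groups. Cultures were set on monolayers of OP9, a stromal line of mouse origin, or of its derivative OP9-DL1, which displays Delta-like 1, a Notch ligand. Each group held 3 libraries. Unstimulated cells were taken from both stromas at 68 h, and cells given 10 µg/mL lipopolysaccharide (LPS, from Salmonella, a ligand of TLR4) or 10 µg/mL anti-IgM F(ab')2 (which engages the B cell receptor) were taken from both at 20, 44 and 68 h. A further group was LPS-stimulated Blimp1+ cells from OP9-DL1, for which the labels give no time. The stroma supplied the ligand, so any other difference between the 2 stromal lines is part of each OP9-DL1 comparison.

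Ribosomes are assembled in the nucleolus. RNA polymerase I transcribes the long precursor of ribosomal RNA there, small nucleolar RNPs of the box C/D and box H/ACA classes guide its methylation and pseudouridylation, a large processome cuts out the small subunit RNA, and separate sets of factors ripen the small (40S) and large (60S) subunits before export. Activated lymphocytes are known to enlarge their nucleoli and raise ribosome production as they grow and divide, and the transcription factor Myc is a known activator of many of these genes. By role, 6 members are nucleolar scaffolds and regulators, 2 are RNA polymerase I subunits, 4 belong to box C/D and 3 to box H/ACA particles, 10 to the small subunit processome, 6 to late 40S maturation and 15 to 60S assembly.

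Myc and its partner Max are known to bind the E-box, CACGTG, a palindrome that reads the same on both strands. RefSeq promoter windows of build GRCm38.p6 were available for 41 members, and 5 (Bop1, Fbl, Npm1, Rrp12 and Rrs1) had none. In the 250 bases before the start, which were searched first, 3 members held the motif, or 7.32%, against 9.66% of the 9977 tested genes with a window. The search was then widened to the whole window of 300 bases, which adds 50 bases after the start, and 12 members held it, or 29.3%, against 11.5% of the tested genes. The order of the 2 shares turned with the window, and the wider one was looked at after the narrower had been seen, so neither is read as a property of the members. A match is a description of the letters and no evidence of binding. The motif of Rpf2 begins 26 bases before 1 annotated start and at base 35 after another, and it is counted here as before the start. The 3 matches before the start and 2 of those after it are shown 5′ to 3′ on the strand of the gene, with the motif in capitals, because Nop2, Rpf2, Imp4, Pno1 and Grwd1 recur in the results.
Nop2, + strand, chr6:125131811-125131840: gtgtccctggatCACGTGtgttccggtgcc
Rpf2, - strand, chr10:40246988-40247017: aagtaatcggtaCACGTGcattcgctaagg
Imp4, + strand, chr1:34439696-34439725: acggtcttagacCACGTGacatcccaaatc
Pno1, - strand, chr11:17211540-17211564: tgtacaaccacgCACGTGttcctct
Grwd1, - strand, chr7:45830740-45830767: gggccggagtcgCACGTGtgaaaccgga

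The libraries held 3.07 to 29.1 M estimated reads. In 10 of them Actb, the cytoplasmic actin gene, stood at 12400 to 85300 TPM against 217 to 2970 in the other 35, and these are called divergent libraries, by a bound of 5000 TPM that was set after the values were seen. They are all 3 of OP9-DL1 with LPS at 20 h, all 3 of OP9 with anti-IgM at 20 h, and replicate 3 of OP9 unstimulated, OP9 LPS, OP9-DL1 LPS and OP9 anti-IgM at 68 h. At 20 h the divergence cannot be told apart from the stroma within a stimulus. OP9 LPS at 20 h held no divergent library, but its replicates were far apart. The SD between them was 0.941 to 1.36 on the log2 scale, against 0.506 to 0.549 for OP9 LPS at 44 h. Its replicate 3 differed in both directions. Replicates 1 to 3 had 656, 1003 and 99.2 TPM as deposited for Nop58, and 22, 13.9 and 63.4 for Nle1. All 10 B cell markers looked up were detected in every group, at 0.224 to 4.09% of transcripts. Stromal markers made up 0.0976 to 1.39% in the unstimulated OP9 libraries and at most 0.0351% in all others. Whether the 3 replicates of a group came from different mice or cultures is not labelled, and the p-values below measure only the spread between these samples, which may be technical.

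Within the groups that held 1 divergent library, the members split by gene. Replicate 3 was above both other replicates in all 4 such groups for 12 members and below both in all 4 for 11, with the remaining 23 mixed. Ncl, which codes for the abundant nucleolar protein nucleolin, is the clearest case on the high side, with 107 and 165 scaled TPM (TPM divided by a size factor per library) in replicates 1 and 2 of OP9 LPS at 68 h and 432 in replicate 3. The median of its 4 ratios of replicate 3 to the mean of the other replicates was 3.02. Ddx21, an RNA helicase of the nucleolus, had a median ratio of 2.49, and Nop16, a 60S factor, 2.13. On the low side stood Nop2, an rRNA methyltransferase of the 60S pathway, at 0.265, Pes1 and Bop1, partners in a 60S assembly complex, at 0.256 and 0.33, and Nop56, a core protein of box C/D particles, at 0.368. Polr1a, the largest subunit of RNA polymerase I, was listed at 0 in replicate 3 of OP9-DL1 LPS at 68 h. It was also listed at 0 in replicate 3 of OP9 LPS at 20 h, which is not divergent, and its mean over all libraries was only 1.19 scaled TPM. A value given without the divergent libraries comes from a fit that leaves out all 10 of them.

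The members followed one another closely across the 15 groups. The correlation of each member with the mean of the others over the 15 group means had a median of 0.94, was above 0.9 for 31 members and was lowest, at 0.619, for Polr1a, which was also the least abundant, at 1.19 scaled TPM. These points share libraries and size factors, and the values are a description. The most abundant members over all libraries were Npm1, the nucleolar chaperone nucleophosmin, at 1057 scaled TPM, then Nop56 at 684, Nhp2, a core protein of box H/ACA particles, at 565, and Ncl at 448. The fold between the highest and the lowest group mean had a median of 6.08 and ran from 2.29 for Ddx10, a helicase of the small subunit processome, to 17 for Grwd1, a 60S assembly factor.

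The summed level of the 46 members on scaled TPM gives the order of the groups. It was highest in OP9-DL1 with LPS at 20 h, at 13880 ± 652 scaled TPM (SD, n = 3), where all libraries were divergent, followed by OP9 LPS at 20 h (11490 ± 499), OP9 LPS at 44 h (10930 ± 253) and OP9-DL1 LPS at 44 h (10160 ± 606). The ranges of the OP9 LPS groups at 20 and 44 h overlapped, while that of OP9-DL1 LPS at 44 h (9459 to 10550) lay just below that of OP9 (10660 to 11160). With anti-IgM, OP9-DL1 cells stood at 9088 ± 52.4 at 20 h and 8143 ± 83 at 44 h, above OP9 cells at 6757 ± 787 and 4435 ± 153. At 68 h the sums were 5027 ± 67.4 for OP9-DL1 anti-IgM, 4168 ± 66.5 for OP9-DL1 LPS, 3742 ± 305 for OP9 anti-IgM and 3524 ± 111 for OP9 LPS. Unstimulated OP9-DL1 cells stood at 3375 ± 110, Blimp1+ cells at 3188 ± 139 and unstimulated OP9 cells at 2442 ± 257. The ranges of OP9 anti-IgM and OP9 LPS at 68 h overlapped, as did those of OP9 LPS and unstimulated OP9-DL1, and of unstimulated OP9-DL1 and Blimp1+ cells. Of the 46 members, 28 had their highest group mean in OP9-DL1 LPS at 20 h and 27 their lowest in unstimulated OP9 cells. On TPM as deposited the order was partly different. The mean share of unstimulated OP9-DL1 cells (0.4204%) was above those of OP9-DL1 LPS (0.4133%), OP9 anti-IgM (0.3655%) and OP9 LPS (0.359%) at 68 h. That of OP9 anti-IgM at 20 h (0.5356%) was below that at 44 h (0.5527%). The ranges overlapped in each of these cases. In bulk samples, fewer cells of a type and less RNA per cell cannot be told apart.

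**Figure D1:**
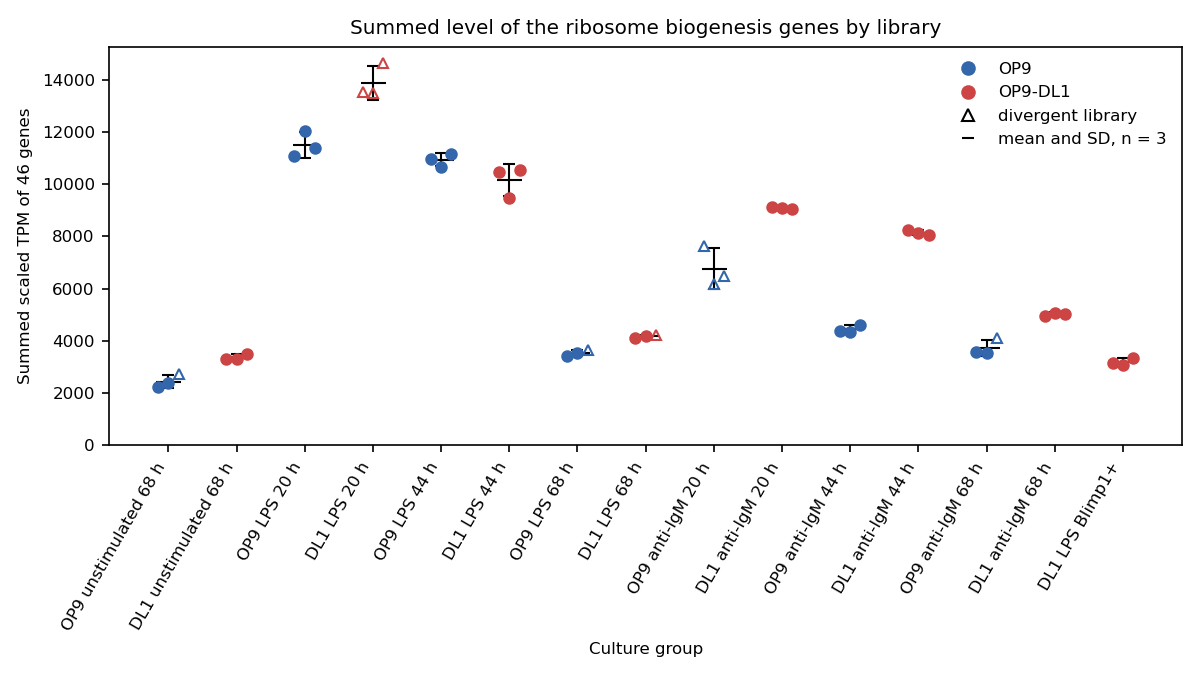
Summed scaled TPM of the 46 ribosome biogenesis genes (y axis) in each library of the 15 culture groups (x axis); circles are libraries, open triangles divergent libraries, and black marks the mean and SD of 3. The 44 h anti-IgM libraries on OP9-DL1 (8065 to 8230) lie above those on OP9 (4335 to 4611), while LPS cultures fall from about the same height on both stromas between 44 and 68 h.

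**Figure D2:**
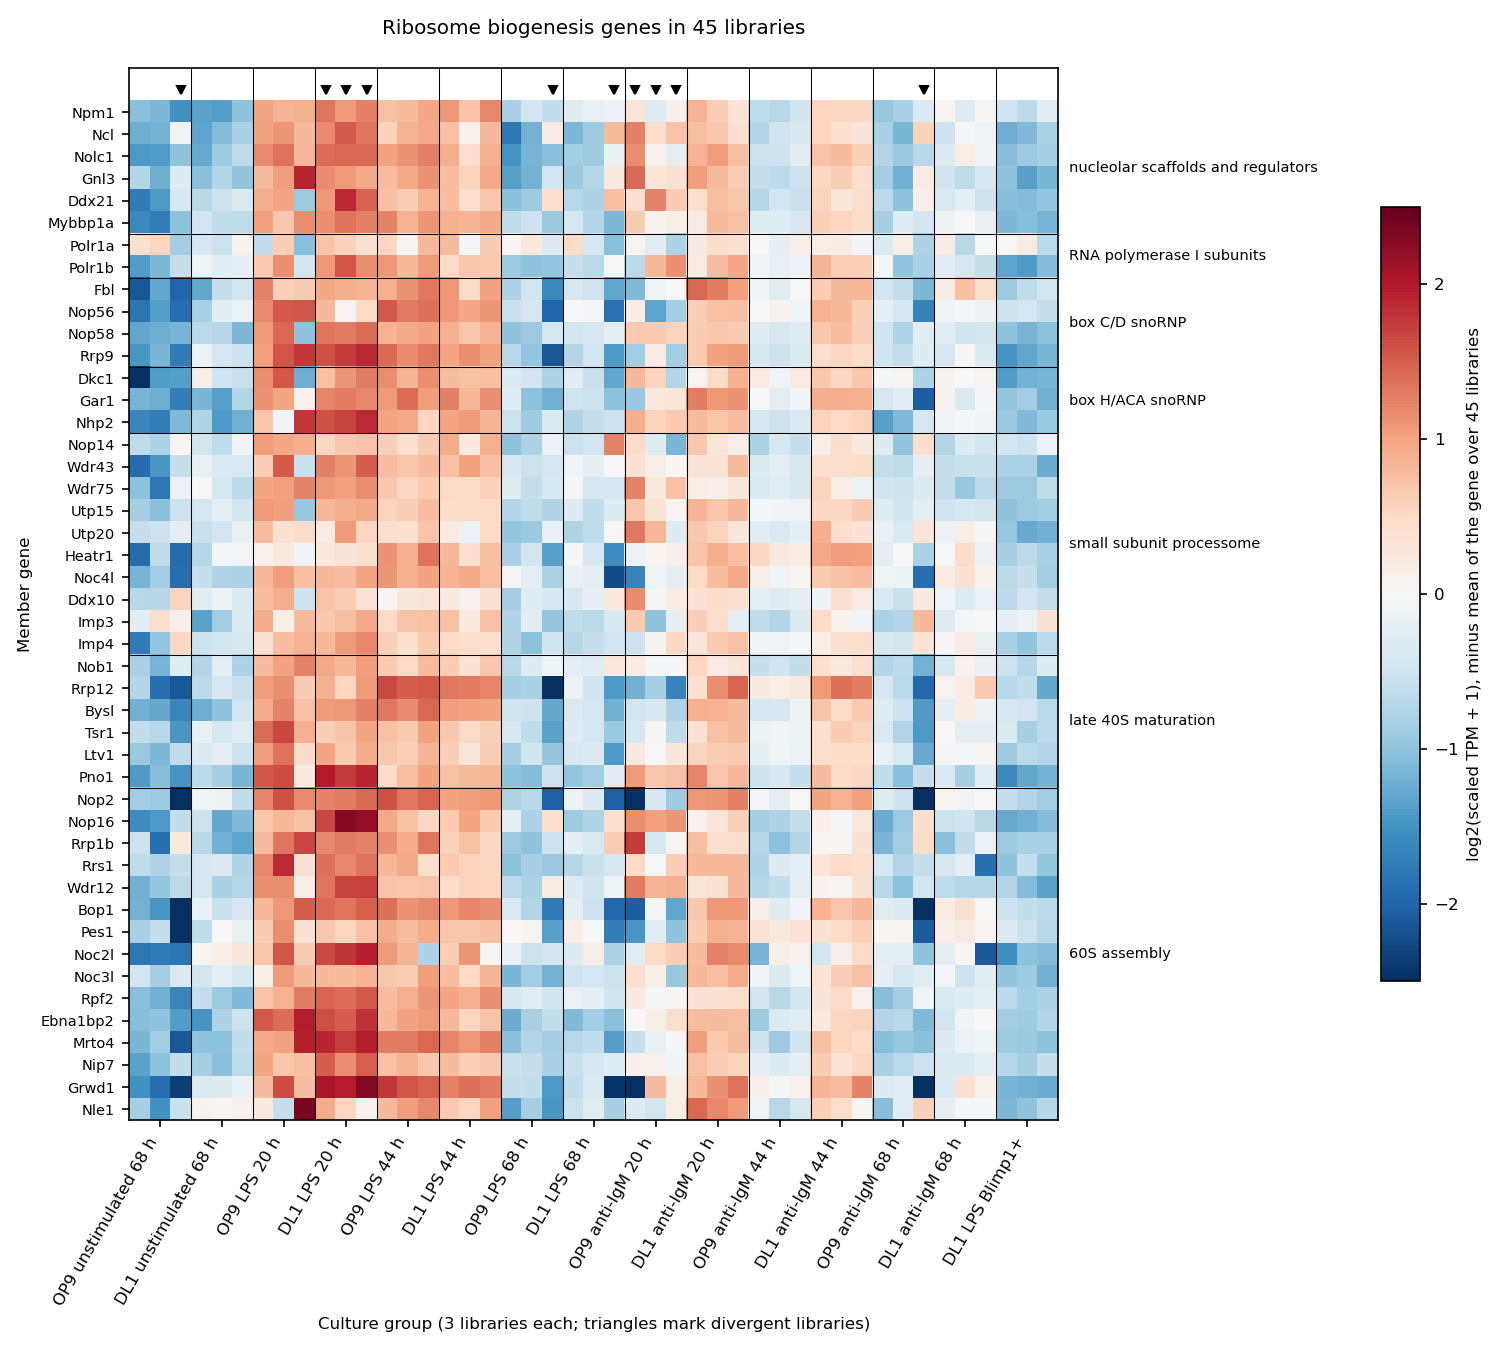
Level of each of the 46 genes (rows, ordered by role) in each of the 45 libraries (columns, in groups of 3), as log2(scaled TPM + 1) minus the mean of that gene over all libraries; triangles mark the 10 divergent libraries. Most rows are red at 20 and 44 h with LPS and blue at 68 h, and divergent replicates at 68 h show the split between genes such as Ncl and Nop2.

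At 44 h, where no library was divergent, the members were higher on OP9-DL1 with anti-IgM. All 46 members had a higher mean on OP9-DL1 than on OP9 (log2 0.11 to 1.24, median 0.86, against a median of -0.05 over all tested genes, of which 42.7% were above 0), and for 44 members every OP9-DL1 library exceeded every OP9 library, a pattern seen in 15% of tested genes. By limma with Benjamini-Hochberg adjustment over all genes, 9 members rose and none fell, where 0.442% of all genes rose and 0.403% fell. The 9 were Npm1, Nolc1 and Mybbp1a among the nucleolar regulators, Nob1 and Pno1 of 40S maturation, and Rpf2, Ebna1bp2, Mrto4 and Nip7 of 60S assembly. No member of the snoRNPs, the processome or RNA polymerase I passed the test, although their medians were 0.90 for box C/D, 0.98 for box H/ACA, 0.68 for the processome and 0.46 for the polymerase subunits.

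Npm1 had 590, 566 and 647 scaled TPM in the OP9 libraries and 1319, 1307 and 1303 in the OP9-DL1 libraries with anti-IgM at 44 h. The groups did not overlap, and the difference was 1.12 ± 0.19 on the log2 scale (SE, limma, adjusted p = 0.00195). Mrto4, a factor that holds a place on the pre-60S particle for a ribosomal stalk protein, had 76.8, 58.7 and 78.3 on OP9 against 187, 162 and 157 on OP9-DL1 (log2 1.24 ± 0.25, limma adjusted p = 0.00857). Every OP9-DL1 library of Mrto4 was above every OP9 library. Nolc1, a nucleolar phosphoprotein that accompanies snoRNPs, stood at 38.3, 39.3 and 46.2 against 93.2, 97.9 and 86 (log2 1.15 ± 0.25, limma adjusted p = 0.017). Pno1, a late 40S factor, stood at 60.8, 66.3 and 59.2 against 154, 124 and 127 (log2 1.10 ± 0.26, limma adjusted p = 0.0297), again with no overlap. The calls of Npm1, Mrto4, Nolc1 and Pno1 were all lost on TPM as deposited and in the authors' log2 table. Those of Nolc1 and Pno1 were also lost when any single library of this comparison was left out. That of Mrto4 was lost without OP9-DL1 replicate 1 or OP9 replicate 2. Polr1b, the second subunit of RNA polymerase I and the more abundant of its 2 members, had 24.3, 22.1 and 22.8 on OP9 and 46.5, 38.8 and 38.8 on OP9-DL1, and its difference of 0.81 ± 0.34 did not pass the test (limma adjusted p = 0.434).

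The number of members called in this comparison depended on the spread assumed and on the scaling, while 45 or 46 of the 46 differences were above 0 under every alternative run. It was 40 when only the 2 groups were fitted, 31 without the divergent libraries, 1 on TPM as deposited or in the authors' log2 table, 1 or 2 when any one of the 6 libraries was left out, and 3 to 9 over the 7 gene sets tried for the size factors, of which the set used here gave the highest. The share of all genes called in these alternative fits, or in those of later comparisons, is not given here. A larger count may therefore go with more calls among all genes. All 46 members kept a positive difference on deposited TPM (median 0.78) and in the authors' table (0.86). B cell markers were lower on OP9-DL1 in the same libraries, at 0.971 to 1.07% of transcripts against 2.06 to 2.36%, with 10 of 10 marker genes below 0 and 0 called, and their part in the result was not tested.

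With LPS at 44 h the picture was different in direction. No member was called (0 of 46, also 0 at an unadjusted p under 0.05, limma; 0.16% of all genes were called), 37 of 46 had a lower mean on OP9-DL1, where 48.4% of all genes had a higher one, and the median was -0.16. For 15 members all 3 OP9-DL1 libraries were below all 3 OP9 libraries, where 9.34% of tested genes showed this. Nolc1, for example, had 114, 123 and 136 scaled TPM on OP9 and 107, 75.5 and 105 on OP9-DL1. Npm1 went the other way in its mean, with 1506, 1584 and 1791 on OP9 and 1939, 1501 and 2093 on OP9-DL1, and its groups overlapped.

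The difference between the 2 stroma effects was tested directly as an interaction. All 46 members had a larger OP9-DL1 difference with anti-IgM than with LPS (median 1.00, where 43.7% of all genes did so), and 28 had an unadjusted p under 0.05, but 0 members passed the adjustment (limma; 0.0961% of all genes passed). The lowest adjusted p was that of Nolc1, at 0.107, with a difference of 1.53. When only these 4 groups were fitted, 37 members were called, and 18 without the divergent libraries, none of which belongs to the 4 groups but which enter the pooled spread. The share of all genes called in these fits is not given here, so the larger counts are not read as particular to the members.

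**Figure D3:**
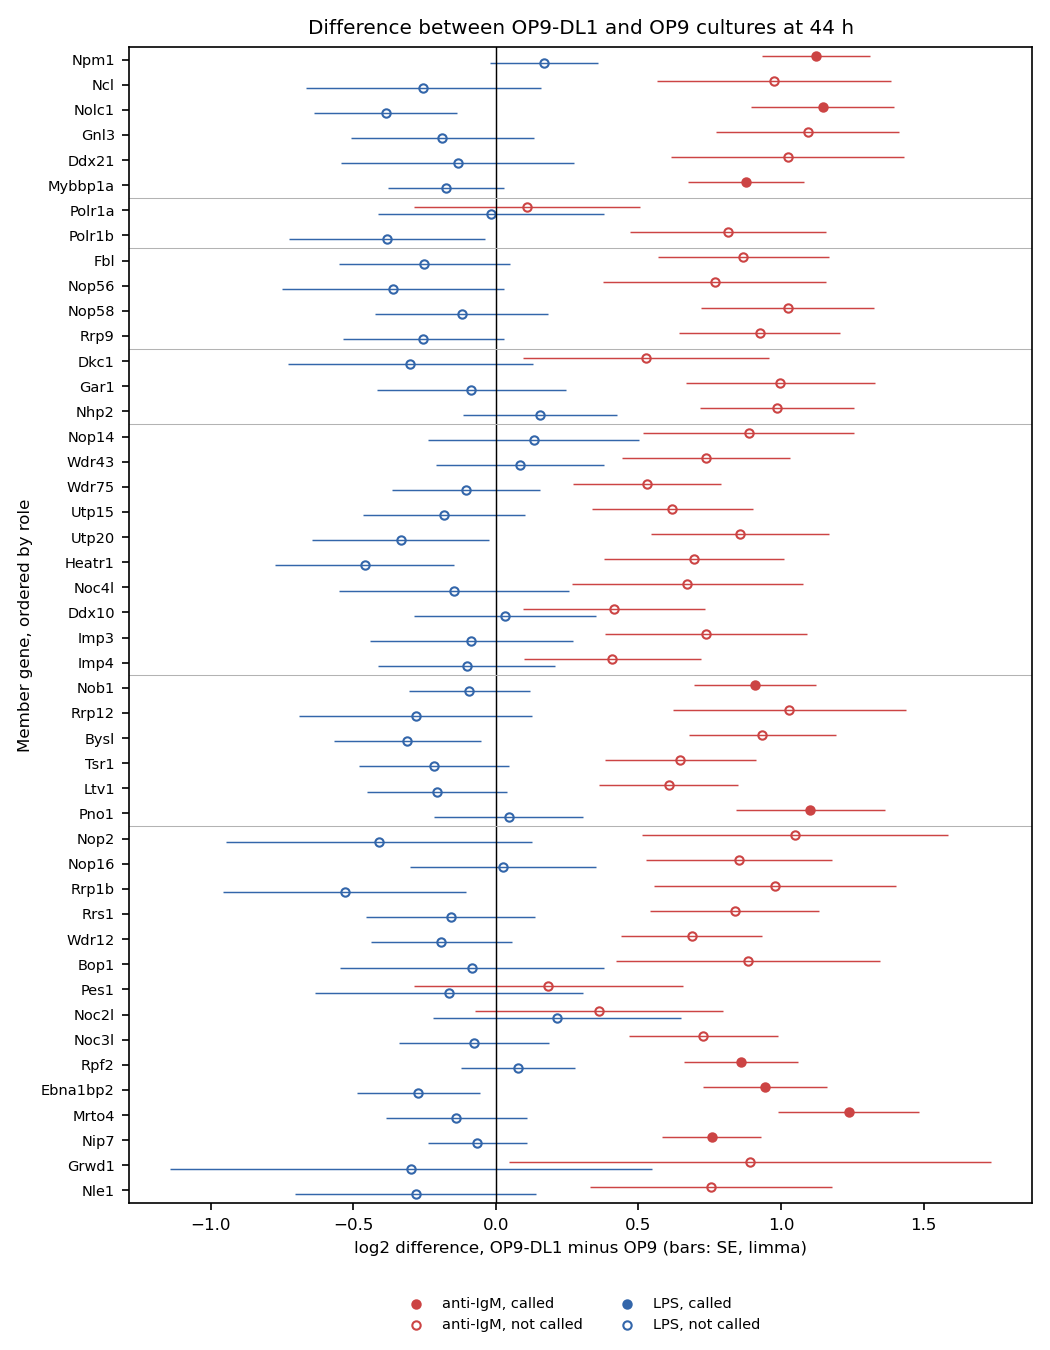
Difference between OP9-DL1 and OP9 cultures at 44 h for each of the 46 genes (rows), on the log2 scale, with anti-IgM (red) and LPS (blue); bars are SE from limma and filled points passed the test. All 46 anti-IgM points lie right of 0, 9 of them filled, while 37 LPS points lie left of 0 and none is filled.

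The same 4 groups show where LPS and anti-IgM cultures differed. On OP9 at 44 h, LPS exceeded anti-IgM for all 46 members (log2 0.47 to 1.97, median 1.24), 33 rose and none fell (limma, adjusted over all genes, of which 4.16% rose, 4.19% fell and 40.1% were above 0). All 6 nucleolar regulators, all 4 box C/D members and all 6 late 40S members were among them, as were 10 of 15 members of 60S assembly, 4 of 10 of the processome, 2 of 3 of box H/ACA and 1 of 2 of RNA polymerase I. Mrto4 had 269, 272 and 302 scaled TPM with LPS against 76.8, 58.7 and 78.3 with anti-IgM (log2 1.97 ± 0.25, limma adjusted p = 7.77e-07). Rrp1b, a nucleolar factor of 60S assembly, had 112, 97 and 129 against 30.3, 24.2 and 30 (log2 1.96 ± 0.43, limma adjusted p = 0.00206). For both genes the LPS libraries were all far above the anti-IgM libraries. Rrp9, the U3 snoRNP protein, had 229, 194 and 213 against 62.7, 59.3 and 65.3 (log2 1.74 ± 0.28, limma adjusted p = 5.08e-05). Bysl, a 40S assembly factor, had 58.1, 52.9 and 63.2 against 16.6, 16.8 and 20.6 (log2 1.64 ± 0.26, limma adjusted p = 3.3e-05). The call of Bysl did not hold on TPM as deposited (adjusted p = 0.0538). The count was 14 on TPM as deposited, 21 without OP9 LPS replicate 1 or replicate 3, and 18 to 33 over the gene sets for the size factors, with the set used here again at the top. B cell markers were lower with LPS in the same libraries, at 0.66 to 0.754% of transcripts against 2.06 to 2.36%, with 10 of 10 genes below 0 and 5 called. T cell markers made up 0.00207 to 0.00335% against 0.0321 to 0.0342%, with 1 of 5 called lower. The part of these lists in the result was not tested.

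On OP9-DL1 at 44 h, the median difference was 0.22, and Rpf2, a 60S factor that brings the 5S RNA particle to the pre-ribosome, was the only member called (1.42% of all genes were higher and 1.42% lower). It had 225, 208 and 249 scaled TPM with LPS and 140, 157 and 122 with anti-IgM, without overlap (log2 0.70 ± 0.20, limma adjusted p = 0.0462). This call was lost when any one of the 6 libraries was left out, with the replicate number as a term, on TPM as deposited and in the authors' table. The count of members was 9 when only the 2 groups were fitted and 4 without the divergent libraries. These 2 comparisons and the 2 stroma effects at 44 h share their libraries pairwise, so they are values of the same 4 groups and not separate support for one another.

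Between 44 and 68 h with LPS the members fell on both stromas. On OP9, 39 of 46 fell and none rose (limma, adjusted over all genes, of which 3.73% fell and 3.15% rose), with a median of -1.61 against 0.09 for all tested genes. For 44 members all 68 h libraries were below all 44 h libraries, a pattern of 13.6% of genes. The 7 that did not pass were Nop16, Pes1, Noc2l, Polr1a, Ddx21, Ddx10 and Grwd1. On OP9-DL1, 31 of 46 fell and none rose (3.37% of all genes fell and 3.39% rose), with a median of -1.22 against 0.17. All 46 means were lower at 68 h on both stromas, whereas 56.8% of all genes on OP9 and 60.4% on OP9-DL1 had a higher mean. One library of each 68 h group was divergent, and without the divergent libraries 44 members were called on OP9 and 40 on OP9-DL1. The OP9-DL1 count was 20 on TPM as deposited and 13 when only the 2 groups were fitted. Leaving out 1 library gave 34 to 38 on OP9 and 21 to 26 on OP9-DL1. Among marker lists, B cell marker genes went up over the same interval in mean for 10 of 10 on both stromas, with 3 called on OP9 and 2 on OP9-DL1. Their part in the result was not tested.

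Rrp12, a factor of late 40S maturation and export, showed the largest called fall on OP9, from 43.9, 39.8 and 40.5 scaled TPM at 44 h to 7.1, 7.14 and 1.23 at 68 h. The last of these is the divergent library, and the difference was -3.00 ± 0.41 with it (limma adjusted p = 7.56e-06) and -2.38 ± 0.28 without the divergent libraries. Nop2 went from 218, 178 and 195 to 42.1, 43.7 and 16.4 (log2 -2.61 ± 0.54, and -2.17 without the divergent libraries). Nop56 went from 1612, 1359 and 1450 to 379, 413 and 139 (log2 -2.39 ± 0.39, and -1.89 without). In each of these genes the divergent replicate 3 was the lowest library, and the other 68 h libraries were also below all 44 h libraries. Rrp9 went from 229, 194 and 213 to 52.4, 42.8 and 18.7 (log2 -2.57 ± 0.28, limma adjusted p = 2.99e-07, and -2.14 without the divergent libraries). Ncl behaved otherwise in replicate 3, with 107, 165 and 432 at 68 h, all below the 44 h libraries of OP9.

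On OP9-DL1 the largest called falls whose groups did not overlap were those of Mrto4, Bop1, Rrp12 and Rrp9. Mrto4 went from 259, 238 and 268 scaled TPM to 68.3, 71.8 and 42.3 (log2 -2.09 ± 0.25, limma adjusted p = 1.67e-06, and -1.85 without the divergent libraries). Bop1 went from 118, 129 and 123 to 46.8, 38.3 and 13.4 (log2 -2.05 ± 0.46, limma adjusted p = 0.00441, and -1.52 without the divergent libraries). The call of Bop1 did not hold on TPM as deposited, when only the 2 groups were fitted, or when replicate 3 at 68 h was the only library left out. Rrp12 went from 34.7, 34.5 and 32.3 to 12, 9.17 and 4.32 (log2 -1.97 ± 0.41, limma adjusted p = 0.00188, and -1.60 without). Imp4, the most abundant processome member, fell on both stromas, by 1.31 ± 0.31 on OP9 (limma adjusted p = 0.00597) and by 1.04 ± 0.31 on OP9-DL1 (limma adjusted p = 0.0342), or by 1.45 and 1.10 without the divergent libraries.

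With anti-IgM the interval from 44 to 68 h gave few calls. On OP9-DL1 all 46 means were lower at 68 h (median -0.75, with 48.7% of all genes higher), and for 40 members the groups did not overlap, where 12.7% of tested genes fell in this way. Nip7, a 60S factor, was the only member called (log2 -0.81 ± 0.17, limma adjusted p = 0.028, where 0.0448% of all genes fell and 0.128% rose), from 90.2, 73.7 and 82.8 scaled TPM to 44.8, 45.1 and 48.8. That count was 28 without the divergent libraries and 31 when only the 2 groups were fitted, and it was 0 with a pseudocount of 0.1 and in the authors' table. The call of Nip7 itself was also lost on TPM as deposited and when any one of the 6 libraries was left out. On OP9, where the level at 44 h was already lower, no member was called (0 of 46, and 8 at an unadjusted p under 0.05, limma; 0.0128% of all genes were called), and the median was -0.26. From 20 to 44 h, 2 of the 4 possible comparisons were tested, those without a divergent library. The OP9 LPS group at 20 h still had the wide spread between replicates given above. No member was called with LPS on OP9 (0 of 46, and 3 at an unadjusted p under 0.05, limma; 1.65% of all genes were called), where 23 means were higher and 23 lower. None was called with anti-IgM on OP9-DL1 either (0 of 46, and 2 at an unadjusted p under 0.05, limma; 0.0576% of all genes were called), where 39 of 46 means were lower at 44 h and the summed levels did not overlap (9040 to 9144 against 8065 to 8230).

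The Blimp1+ cells, taken from OP9-DL1 cultures with LPS, had low levels of these genes. Against OP9-DL1 LPS cells at 44 h, 41 of 46 members were lower by the test and none higher (limma, adjusted over all genes, of which 4.43% were lower and 7.86% higher), with a median of -1.57 against 0.13 for all genes. The groups did not overlap for 44 members, where 17% of all genes were lower in this way. Neither group holds a divergent library. The labels give no time for the Blimp1+ cells, so in this comparison the choice of Blimp1+ cells cannot be told apart from time in culture. Those not called were Nop14, Pes1, Polr1a, Ddx10 and Imp3. Plasma cell markers stood at 0.597 to 0.642% of transcripts in Blimp1+ libraries against 0.0739 to 0.0886% in the 44 h cells, with 5 of 6 marker genes called higher. The list includes Prdm1, the gene for Blimp1, so it partly repeats how these cells were chosen. Of 8 stromal markers tested, 1 was called higher, their summed share was 0.00837 to 0.0139% against 0.00279 to 0.00545%, and B cell markers stood at 1.63 to 1.8% against 0.615 to 0.677%, with 9 of 10 above 0 and 4 called higher. The part of these lists in the result was not tested. The count without the divergent libraries was 44, and leaving out 1 library gave 38 or 39.

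Rrp9 stood at 30.1, 33.9 and 38 scaled TPM in Blimp1+ cells and 170, 191 and 172 at 44 h (log2 -2.35 ± 0.28, limma adjusted p = 2.26e-07). Pno1 stood at 28.4, 35.5 and 38.6 against 147, 154 and 159 (log2 -2.14 ± 0.26, limma adjusted p = 3.03e-07). Rrp12 stood at 7.82, 8.34 and 4.88 against 34.7, 34.5 and 32.3 (log2 -2.15 ± 0.41, limma adjusted p = 0.000285). For all 3 genes the Blimp1+ libraries lay far below the others. Grwd1 had the largest difference, with 23.2, 22.3 and 21.8 against 127, 138 and 130 (log2 -2.502 ± 0.85), and only just passed (limma adjusted p = 0.0465). Its call did not hold on TPM as deposited, in the authors' table, with a pseudocount of 0.1, without the filter or when any one of the 6 libraries was left out. Against OP9-DL1 LPS cells at 68 h no member was called (0 of 46, and 12 at an unadjusted p under 0.05, limma; 2.84% of all genes were called), and the median was -0.36. That count was 3 on TPM as deposited, 2 without the divergent libraries and 0 when the one divergent library of this comparison was the only one left out. Both comparisons share the Blimp1+ libraries.

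**Figure D4:**
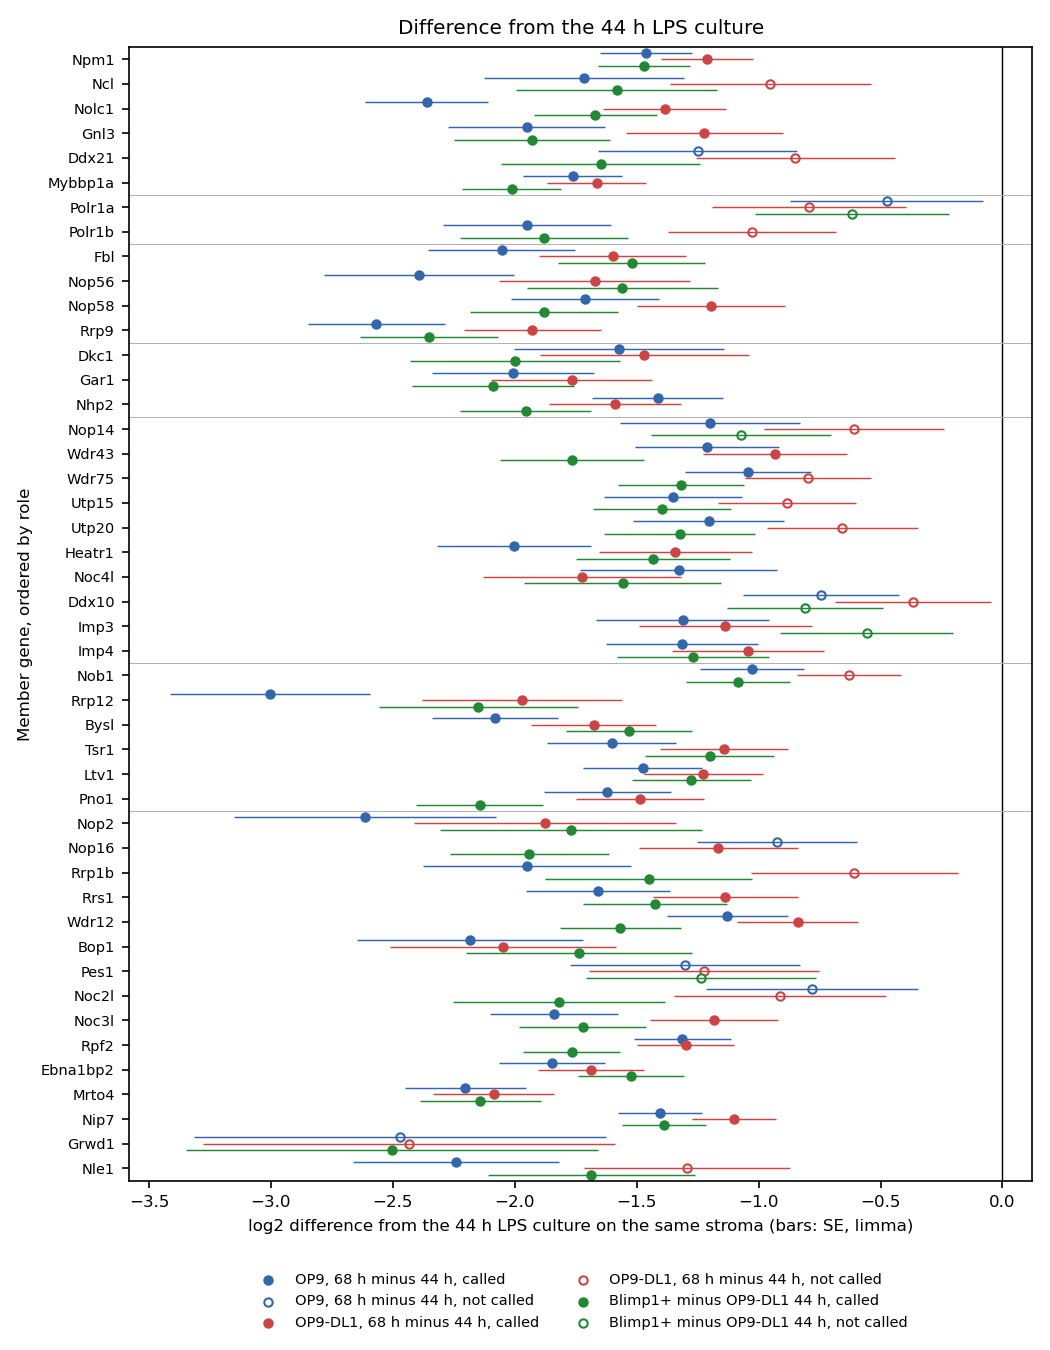
Difference from the 44 h LPS culture on the same stroma for each of the 46 genes (rows), on the log2 scale, for 68 h OP9 (blue), 68 h OP9-DL1 (red) and Blimp1+ cells from OP9-DL1 (green); bars are SE from limma and filled points passed the test. All points lie left of 0, with 39, 31 and 41 filled, and the red and green series share the OP9-DL1 44 h libraries.

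Against unstimulated cells at 68 h, the stimulated cultures differed modestly in these genes. On OP9, 9 members were higher with LPS (9.97% of all genes were higher and 21.2% lower) and 9 with anti-IgM (7.97% and 16.4%), none was lower, and the medians were 0.42 and 0.53. Npm1, Fbl, Wdr43, Dkc1, Noc2l, Rpf2 and Mybbp1a were in both sets, which share the unstimulated libraries. The LPS count was 1 when only the 2 groups were fitted, 16 without the divergent libraries and 5 without OP9 unstimulated replicate 1. The anti-IgM count was 0 when only the 2 groups were fitted, 2 on TPM as deposited, 4 without OP9 unstimulated replicate 1, and 21 without the divergent libraries, of which 20 were higher and 1 lower. On OP9-DL1, Npm1 alone was higher with LPS (4.94% of all genes were higher and 2.93% lower), and Npm1, Fbl, Nolc1, Nhp2, Bysl and Ebna1bp2 with anti-IgM (5.19% and 4.21%), with medians of -0.02 and 0.40. The LPS count was 0 on TPM as deposited, in the authors' table and when only the 2 groups were fitted, and 3 without the divergent libraries. The anti-IgM count was 2 on TPM as deposited and in the authors' table, 2 without OP9-DL1 anti-IgM replicate 2, 3 without its replicate 3 or without OP9-DL1 unstimulated replicate 1 or 2, 15 when only the 2 groups were fitted and 17 without the divergent libraries. The LPS median on OP9-DL1 was -0.35 on TPM as deposited, which moved the median of all genes to -0.26, and 0.06 without the divergent libraries. Stromal and myeloid transcripts were higher in the unstimulated OP9 libraries (stromal 0.0976 to 1.39%, myeloid 0.00301 to 0.0156%) than in the stimulated ones, and their part in the OP9 results was not tested.

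Npm1 had 360, 352 and 452 scaled TPM in unstimulated OP9-DL1 cells, 736, 804 and 825 with LPS (log2 1.03 ± 0.19, limma adjusted p = 0.00029) and 945, 739 and 961 with anti-IgM (log2 1.18 ± 0.19, limma adjusted p = 4.47e-05). Neither stimulated group overlapped the unstimulated one. The LPS call of Npm1 was lost on TPM as deposited, in the authors' table and when only the 2 groups were fitted, and its anti-IgM call held in every fit run. Fbl, fibrillarin, the methyltransferase of box C/D particles, had 53.8, 88.9 and 96.2 unstimulated and 152, 225 and 175 with anti-IgM on OP9-DL1 (log2 1.22 ± 0.30, limma adjusted p = 0.00634), a call lost on TPM as deposited, in the authors' table and without OP9-DL1 anti-IgM replicate 2 or unstimulated replicate 1. Nhp2 had 271, 167 and 198 against 424, 439 and 434 (log2 1.05 ± 0.27, limma adjusted p = 0.00911), a call lost without OP9-DL1 unstimulated replicate 2. On OP9, Dkc1, the pseudouridine synthase of box H/ACA particles, had 32.7, 77.9 and 78.3 unstimulated and 200, 218 and 120 with anti-IgM (log2 1.55 ± 0.43, limma adjusted p = 0.00623), again with no overlap. That call was lost when only the 2 groups were fitted and without OP9 unstimulated replicate 1. Rpf2 had 54.2, 48.2 and 35.3 unstimulated and 85.5, 93 and 79.8 with LPS on OP9 (log2 0.91 ± 0.20, limma adjusted p = 0.000452), a call lost when only the 2 groups were fitted. Without the divergent libraries the differences were 0.99 for Npm1 with LPS on OP9-DL1, 2.02 for Dkc1 and 0.79 for Rpf2, all called.

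Without a stimulus, OP9-DL1 cells at 68 h had 9 members called higher and 1 lower than OP9 cells (limma, where 8.59% of all genes were higher and 18.2% lower). The median was 0.44 against -0.21 for all genes. Noc2l, a nucleolar factor linked to 60S export, had 20.7, 21.5 and 20.5 scaled TPM on OP9 and 79.1, 83.9 and 91.8 on OP9-DL1 (log2 1.97 ± 0.44, limma adjusted p = 0.000662). Nop56 had 156, 211 and 147 against 314, 463 and 502 (log2 1.30 ± 0.39, limma adjusted p = 0.0111). Dkc1 had 32.7, 77.9 and 78.3 against 228, 147 and 140 (log2 1.499 ± 0.43, limma adjusted p = 0.00784). The groups did not overlap for any of these 3. Imp3, a U3 snoRNP protein of the processome, was the member called lower, with 30.3, 51 and 40.7 on OP9 and 14.2, 19.9 and 29.2 on OP9-DL1 (log2 -0.94 ± 0.35, limma adjusted p = 0.0458). The count of called members was 17 on TPM as deposited, where all were higher, 21 without the divergent libraries, of which 20 were higher and 1 lower, and 2 when only these groups were fitted. Without the divergent libraries the differences were 1.96 for Noc2l, 1.20 for Nop56, 1.71 for Dkc1 and -0.93 for Imp3, all called. When single libraries were left out, Nop56 lost its call without OP9-DL1 replicate 3, Dkc1 without replicate 1 of either group, and Imp3 without OP9-DL1 replicate 1 or 2 or OP9 replicate 2 or 3. The call of Imp3 was also lost on TPM as deposited and in the authors' table. On TPM as deposited the median of all genes in this comparison moved by 0.36 and that of the members reached 0.96. All 8 stromal markers tested were called lower on OP9-DL1 and 7 of 10 B cell markers higher, and their part in the result was not tested.

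At 20 h the stroma comparisons set divergent libraries against others. With anti-IgM, 17 members were higher on OP9-DL1 and none lower (9.68% of all genes were higher and 10.4% lower), with a median of 0.52. Plasma cell markers were higher on OP9-DL1 in mean for 6 of 6 genes with 3 called (0.0945 to 0.112% of transcripts against 0.00778 to 0.0247%), and 2 stromal and 1 T cell marker were called lower. The part of these lists in the result was not tested. Rrp12 had 5.21, 7.09 and 3.52 scaled TPM in the divergent OP9 libraries and 18.2, 31.1 and 38.5 on OP9-DL1 (log2 2.25 ± 0.41, limma adjusted p = 0.0011). Nop2 had 9.48, 53.4 and 37.6 against 152, 154 and 172 (log2 2.51 ± 0.54, limma adjusted p = 0.0035). Both are genes whose level was also lower in the divergent replicates at 68 h. With divergence as a term, the differences were 0.95 for Rrp12 and 0.60 for Nop2, neither passed, 5 members were called, and Pes1 turned from 1.71 to -0.13. The size of that term comes only from the 4 groups at 68 h that held 1 divergent library, and it is carried over to 20 h. These adjusted values therefore cannot separate divergence from stroma at 20 h. Grwd1 was listed at 0 in 1 OP9 library and at 92.2 and 59.5 in the others, against 94.2, 117 and 136 on OP9-DL1 (log2 2.70 ± 0.85), and its call was lost without that library, without any one OP9-DL1 library, and with divergence as a term. The count for all members was 11 without OP9-DL1 anti-IgM replicate 2.

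With LPS at 20 h, where the OP9-DL1 libraries were the divergent ones, 3 members were higher on OP9-DL1 and none lower (3.84% of all genes were higher and 4.75% lower). B cell markers stood at 0.324 to 0.377% on OP9-DL1 against 0.597 to 0.948% on OP9, with 2 of 10 called lower, and their part in the result was not tested. Nop16 had 325, 359 and 335 scaled TPM on OP9 and 641, 976 and 927 on OP9-DL1 (log2 1.30 ± 0.33, limma adjusted p = 0.0104), and it was also higher in the divergent replicates at 68 h. Its call was lost when only the 2 groups were fitted, with divergence as a term (log2 0.15), and without OP9-DL1 replicate 2 or 3. Nip7 had 115, 93.7 and 98.1 against 167, 130 and 163 (log2 0.58 ± 0.17, limma adjusted p = 0.0311). This call was lost on TPM as deposited, in the authors' table, when only the 2 groups were fitted and with divergence as a term. It was also lost without OP9-DL1 replicate 1 or 3, or OP9 replicate 2 or 3. The third was Nhp2. The count ran from 0 to 8 when single libraries were left out: 1 without OP9-DL1 replicate 1 or 2, 0 without OP9-DL1 replicate 3, 6 without OP9 replicate 1 and 8 without OP9 replicate 2. With divergence as a term it was 15, of which 3 were lower on OP9-DL1, and the limit of that term at 20 h given above holds here too.

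At 68 h the OP9-DL1 comparison gave 1 called member with anti-IgM and none with LPS. Fbl had 97, 88.9 and 60.3 scaled TPM on OP9 and 152, 225 and 175 on OP9-DL1 with anti-IgM (log2 1.17 ± 0.30, limma adjusted p = 0.0421, where 0.679% of all genes were higher and 0.64% lower). The median over the members was 0.28, 7 members were called without the divergent libraries, and 2 when OP9 anti-IgM replicate 3, the one divergent library of this comparison and the lowest OP9 value of Fbl, was the only one left out. The call of Fbl was lost when any OP9-DL1 library or that OP9 library was left out singly, and it held without all 10 (log2 0.96, limma adjusted p = 0.0264). With LPS, 0 of 46 were called (3 at an unadjusted p under 0.05, limma; 0.0512% of all genes), 36 means were higher on OP9-DL1, as were 57.5% of those of all genes, and the median was 0.21. Without the divergent libraries the count was also 0.

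**Figure D5:**
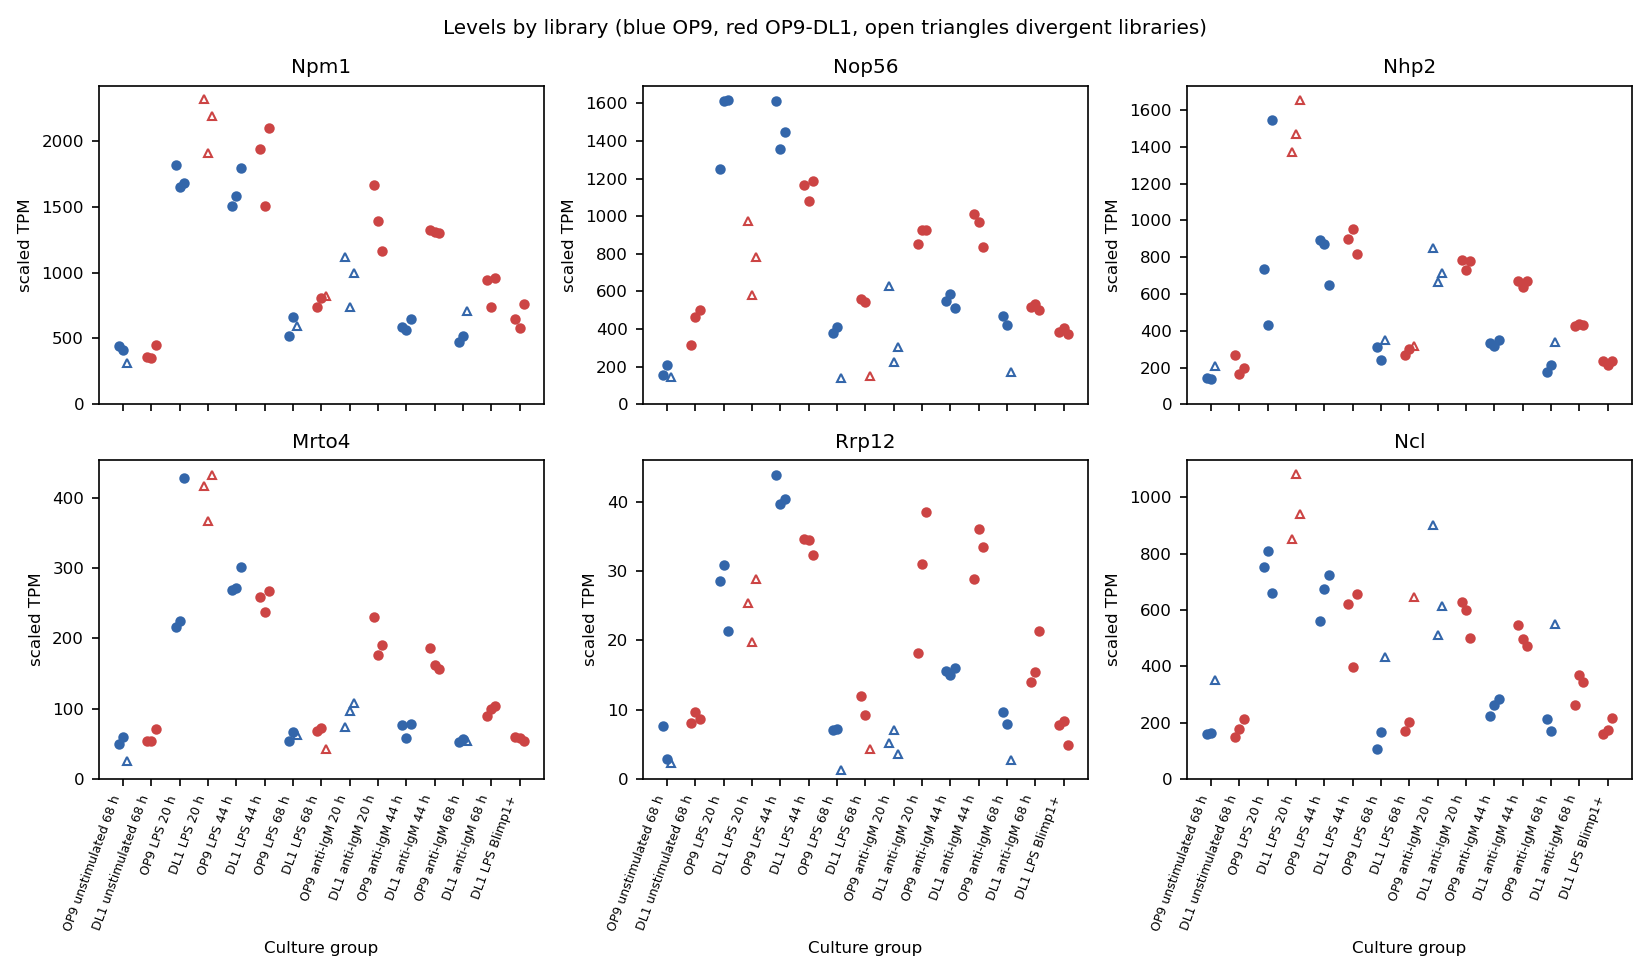
Scaled TPM (y axis) of Npm1, Nop56, Nhp2, Mrto4, Rrp12 and Ncl in every library of the 15 groups (x axis), OP9 in blue and OP9-DL1 in red, with open triangles for divergent libraries. Nop56 and Rrp12 are low and Ncl high in the divergent replicates at 68 h, whereas the 44 h groups, which hold none, separate with anti-IgM in all 6 genes.

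Other genes of the same pathway, from lists chosen with earlier results of these data known, were counted in the same comparisons, as a description. Of 79 further ribosome assembly factors tested, 78 had a higher mean on OP9-DL1 with anti-IgM at 44 h (median 0.55) and 3 were called higher. Among all tested genes, 42.7% had a higher mean and 0.442% were called higher. In the same comparison the 18 further RNA polymerase I genes had a median of 0.50 with 1 called, the 13 RNA exosome subunits, which trim ribosomal RNA precursors, a median of 0.44 with 0 called, and the 6 genes for nuclear export of pre-ribosomes a median of 0.69 with 1 called. With LPS at 44 h no gene of these 4 lists was called, where 0.16% of all genes were. From 44 to 68 h with LPS on OP9, 44 of the 79 assembly factors fell, with 5 of 18 polymerase genes, 4 of 13 exosome and 4 of 6 export genes, and none of the 4 lists had a gene that rose. Of all genes, 3.73% fell and 3.15% rose in that interval. In Blimp1+ cells against 44 h, 38 of 79, 8 of 18, 9 of 13 and 3 of 6 were lower and none higher, where 4.43% of all genes were lower and 7.86% higher. Myc itself was not called in any OP9-DL1 comparison, and with anti-IgM at 44 h its difference was 0.37 ± 0.38 (limma adjusted p = 1). It was lower in Blimp1+ cells than at 44 h (log2 -1.13 ± 0.38, limma adjusted p = 0.0429), and its fall from 44 to 68 h with LPS on OP9 did not pass (log2 -0.86 ± 0.38, limma adjusted p = 0.2). Against unstimulated OP9 cells at 68 h, Myc was higher with LPS (log2 1.25 ± 0.38, limma adjusted p = 0.00987). It was also higher there with anti-IgM (log2 1.03 ± 0.38, limma adjusted p = 0.0405). In both of these comparisons the libraries of the groups overlapped. Unstimulated OP9 cells had 25 and 37.8 scaled TPM of Myc in replicates 1 and 2 and 153 in the divergent replicate 3. On OP9-DL1 neither response of Myc passed (log2 1.15 with LPS and 0.46 with anti-IgM).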

How the data were processed

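The deposited table of the authors holds TPM (transcripts per 1e+06) per gene symbol and library. The authors also deposited log2 expression values, used as an alternative. Tools named in the submitters' processing notes are kallisto and limma, and builds GRCm38 and mm10, with no version given. The transcript set is not given in the sources used here. Listed TPM add up to 92.1 to 96% of 1e+06.

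Each library was scaled by a size factor (median of ratios, 0.418 to 1.33) from the 7096 genes at 1 TPM or more in every library. Gene sets at 7 minimum levels were run, and this one was picked after their results had been seen, because its range and counts matched an earlier description of these data. A pseudocount of 1 was added and log2 taken, which understates changes of low genes. One limma fit (3.58.1, R 4.3.3, mean-variance trend, robust) of 15 group means over 45 libraries gave 22 comparisons. Genes at 1 TPM or more in at least 3 libraries were tested, with Benjamini-Hochberg adjustment over all 15614 and calls at adjusted p below 0.05. By rule, library values are printed from among the called, non-overlapping members with the largest changes (at most 4 per direction and comparison) and the most abundant member of each role. Ncl, and Nolc1 with LPS at 44 h, were added after their values were seen. Values of Nop58 and Nle1 in OP9 LPS at 20 h, of Polr1a where listed at 0 and of Myc in unstimulated OP9 cells also lie outside this rule. The script was tested on simulated data. The members, the lists and the bound on Actb were chosen with earlier results of these data known. Alternatives were deposited TPM, the authors' log2 table, pseudocount 0.1, no filter, the replicate number as a term, only the groups compared, and leaving out each library. Added after seeing the data were the fits on divergent libraries and the first gene set for size factors. Replicate numbers are not stated to pair samples.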

Additional observations from a re-analysis of the deposited data

Results flagged for a closer look

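At 44 h, 15 of the 46 members were higher in every OP9-DL1 library than in every OP9 library with anti-IgM and lower in every OP9-DL1 library than in every OP9 library with LPS. That is 32.6% of the members, against 208 tested genes, or 1.33%. The 15 are all the members that were lower without overlap with LPS, and 44 of the 46 were higher without overlap with anti-IgM. The joint count therefore mostly repeats those counts. The count was also 15 on TPM as deposited. This count was chosen after the values were seen and after the test of the difference between the 2 stroma effects had called 0 of 46 members (limma, lowest adjusted p 0.107, 28 members at an unadjusted p under 0.05). It is therefore a description. The members include Nolc1, Nop2, Rrp1b, Mrto4, Bysl, Nop56, Rrp12 and Heatr1. Their LPS differences were small, from -0.14 for Mrto4 to -0.53 for Rrp1b, and none was called. The summed share of the 46 members with LPS was 1.038 to 1.119% of transcripts on OP9-DL1 and 1.106 to 1.272% on OP9 as deposited, so these ranges overlap.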

How the results depend on the processing

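Counts of called members are given, with the count of the report in parentheses. The share of all genes called in each fit is not given, so a change in count is not read as particular to the members. On TPM as deposited they were 17 for the unstimulated OP9-DL1 effect (10), 1 for OP9-DL1 with anti-IgM at 44 h (9), 2 for the anti-IgM response on OP9 (9), 0 for the LPS response (1) and 2 for the anti-IgM response (6) on OP9-DL1, 14 and 0 for LPS against anti-IgM on OP9 (33) and OP9-DL1 (1), 20 for LPS 44 to 68 h on OP9-DL1 (31) and 3 for Blimp1+ against 68 h (0). In the authors' log2 table they were 17 for the unstimulated effect, 1 for anti-IgM at 44 h, 2 for the anti-IgM response on OP9, 0 and 2 for the LPS and anti-IgM responses on OP9-DL1, 19 and 0 for LPS against anti-IgM on OP9 and OP9-DL1, 30 for LPS 44 to 68 h on OP9-DL1 and 0 for Blimp1+ against 68 h, with LPS and anti-IgM 20 h at 1 (3) and 29 (17), anti-IgM 68 h at 2 (1) and anti-IgM 44 to 68 h on OP9-DL1 at 0 (1). A pseudocount of 0.1 gave 0 for the last, and no filter gave 0 for anti-IgM at 68 h. With only the groups compared, the OP9-DL1 effects were 2 unstimulated, 0 and 5 at 20 h with LPS and anti-IgM, 40 at 44 h and 0 at 68 h with anti-IgM, the responses on OP9 were 1 and 0 and on OP9-DL1 0 and 15, LPS against anti-IgM on OP9-DL1 was 9, LPS and anti-IgM 44 to 68 h on OP9-DL1 were 13 and 31, and the interaction was 37 (0). Without divergent libraries they were 21 unstimulated, 31 and 7 with anti-IgM at 44 and 68 h, 16 and 21 for responses on OP9, 3 and 17 on OP9-DL1, 4 for LPS against anti-IgM on OP9-DL1, 2 for OP9 LPS 20 to 44 h (0), 28 for anti-IgM 44 to 68 h, 2 for Blimp1+ against 68 h and 18 for the interaction. With divergence as a term they were 15 and 5 at 20 h, 18 and 3 with anti-IgM at 44 and 68 h, 17 and 14 on OP9, 2 and 13 on OP9-DL1, 2 for LPS against anti-IgM on OP9-DL1, 1 for OP9 LPS 20 to 44 h, 5 for anti-IgM 44 to 68 h on OP9-DL1 and 3 for the interaction. For the stroma comparisons at 20 h this term cannot separate divergence from stroma. Size factors from genes above 0 in all libraries, the first set run, gave 2 for anti-IgM at 68 h, 2 and 10 for responses on OP9-DL1. Over 7 such gene sets the OP9-DL1 count with anti-IgM at 44 h was 3 to 9 and LPS against anti-IgM on OP9 18 to 33, the report's set giving the highest of each. Leaving out 1 library gave 0 to 8 and 11 to 16 at 20 h with LPS and anti-IgM, 1 to 2 and 0 to 2 with anti-IgM at 44 and 68 h, 5 to 11 and 4 to 12 for responses on OP9, 1 to 2 and 2 to 7 on OP9-DL1, 21 to 24 and 0 to 0 for LPS against anti-IgM, 0 to 1 for OP9 LPS 20 to 44 h and 0 to 1 for anti-IgM 44 to 68 h. Of 211 calls of single members, 66 were lost on TPM as deposited, 66 with only the groups compared and 87 in some fit without 1 library, and 1 reversed, Pes1 (-0.13 with divergence as a term). The replicate block changed 1 count by over 1.5 times, LPS against anti-IgM on OP9-DL1 at 44 h (0). Every pair of replicate numbers correlated above 0.1 in 3 comparisons, in each of which replicate 3 is divergent in both groups. The cause of these changes was not tested.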
